A study of Mus musculus with 20 samples.

Results

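Thioredoxin-interacting protein (Txnip) was examined together with the thioredoxins, thioredoxin reductase and the peroxiredoxins that it acts on or works beside, in Control and Tdp-43 knockdown cultures of mouse motoneurons. The set has 10 genes, Txnip, Txn1, Txn2, Txnrd1, Prdx1, Prdx2, Prdx3, Prdx5, Prdx6 and Gpx4, found by gene symbol among the 39174 genes listed for each library, and each symbol matched a single row. Motoneurons were enriched by panning with an antibody from spinal cords of CD-1 mouse embryos at day E12.5 and grown for 7 d in microfluidic chambers, in which axons cross into a compartment of their own. Control cultures had been transduced with an empty lentiviral vector, and Tdp-43 knockdown cultures with a lentivirus encoding a single shRNA against the Tdp-43 transcript, so that every group carries a lentivirus and only the knockdown groups carry an shRNA. There were 4 somatodendritic and 4 axonal libraries of Control and 6 somatodendritic and 6 axonal libraries of Tdp-43 knockdown, 20 in all. No label says which axonal and somatodendritic libraries came from the same dish or which embryos were pooled, so that p-values measure the spread between these libraries. Expression is given in FPKM, which divides fragments by transcript length and by the mapped total of a library, so that levels can be compared between genes.

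Thioredoxins are small proteins that reduce disulfide bonds and hand electrons on to peroxiredoxins, the enzymes that remove most of a cell's hydrogen peroxide. Thioredoxin reductase recharges them with electrons from NADPH. Txnip binds reduced thioredoxin and blocks it. It is also an alpha-arrestin that draws glucose transporters from the cell surface, and its transcript is known to be induced by glucose through the transcription factors Mlx and its partner Mlxip. Txn1, Txnrd1, Prdx1 and Prdx2 act mainly in the cytosol, and Txn2 and Prdx3 in mitochondria. Prdx5 is found in mitochondria, peroxisomes and the cytosol. Prdx6 draws on glutathione in place of thioredoxin, and Gpx4 uses glutathione to reduce lipid peroxides in membranes. Neurons, with long axons full of mitochondria, are known to depend on this system.

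The promoter of Txnip is shown first because the known glucose response of the gene runs through a repeated short element, and those of Txnrd1 and Prdx1 because these genes are known targets of the oxidant-responsive factor Nrf2. RefSeq windows of 250 bases before to 50 bases after the start (GRCm38.p6) were held for 9 of the 10 genes, Prdx6 not among them. Each was searched on both strands for a pair of CACGNG with 5 bases between its copies, for CACGTG, and for TGACNNNGC, the core of the antioxidant response element. A pair of CACGNG can contain CACGTG. The matched letters are in capitals.
Txnip, chr3:96557866-96557895, plus strand, match on the plus strand: actgtgCACGAGGGCTGCACGAGcctccag
Txnrd1, chr10:82859104-82859133, plus strand, match on the opposite strand: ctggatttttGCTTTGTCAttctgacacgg
Prdx1, chr4:116685456-116685485, plus strand, match on the opposite strand: cagggaaagcGCTGAGTCAtcccccgtagg
The pair in Txnip lies from -85 to -69 relative to the start and was present in 16 of 32851 promoters (0.0487%), and in no other of the 9 genes. TGACNNNGC lies from -92 to -84 in Txnrd1 and from -133 to -125 in Prdx1, and was present in 12.4% of promoters. CACGTG, which is present in 7.15% of promoters, was found in none of the 9 genes. Positions count from the RefSeq start, which for Prdx1 lies within the gene span given below and not at its first base. A match describes letters in these windows only.

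In coordinates of GRCm38, Txnip lies at chr3:96557957-96561883, Txn1 at chr4:57943373-57956411, Txn2 at chr15:77915047-77929006 and Txnrd1 at chr10:82859206-82897724. The peroxiredoxins lie at chr4:116685544-116700822 (Prdx1), chr8:84969587-84974834 (Prdx2), chr19:60864051-60874556 (Prdx3), chr19:6906697-6910106 (Prdx5) and chr1:161240112-161251219 (Prdx6), and Gpx4 at chr10:80047166-80056439. All 10 are annotated as protein coding. In GENCODE M21, exons of 3 of them share bases with a gene on the opposite strand. These are 606 bases of Txnip with Gm15441 (at most 3.97 FPKM in any library), 177 of Prdx2 with Rnaseh2a (median 5.79 FPKM) and 409 of Prdx5 with Trmt112 (median 52.5 FPKM). Whether the counting used the strand is not given in the sources used here, so reads in the shared bases cannot be told apart. The near-identical rows Prdx2-rs3 and Prdx6-ps2 were at 0 in all 20 libraries, and Prdx6b was above 0 in 1 library (1.75 FPKM).

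The libraries differed in depth, in the knockdown and in mitochondrial RNA. Depth relative to the deepest library, read from the width of the FPKM intervals, was between 0.530 and 1 in Control and between 0.103 and 0.760 in Tdp-43 knockdown libraries. Tardbp, the gene that encodes Tdp-43, was at 19.0 to 30.8 FPKM in somatodendritic Control and at 0 to 8.54 FPKM in somatodendritic knockdown libraries. In axonal libraries it was at 13.4 to 32.3 FPKM in Control and 1.21 to 33.2 FPKM in knockdown. The highest knockdown value was that of the library labelled Tdp-43 knockdown axonal replicate 1, which goes against its label. Only knockdown replicates 2 (1.21 FPKM) and 3 (4.97 FPKM) were far below every axonal Control library. Knockdown replicates 4 (13.1 FPKM) and 6 (11.5 FPKM) lay just under the lowest Control library, and knockdown replicate 5 just above it. After scaling, knockdown replicate 1 alone was above the lowest Control library, so that depletion in replicates 4, 5 and 6 is less clear. Mitochondrially encoded genes took at least 33.0% of FPKM in 5 of the 10 axonal libraries (Control replicate 4 and knockdown replicates 2, 4, 5 and 6) and at most 15% in each of the other 15 libraries. Axonal results that change their call or direction without these 5 are also given without them. Of 6 motoneuron markers, 5 were measured, and Chat, Isl2 and Mnx1 were at 0 in all 20 libraries, the list summing to at most 8.9 FPKM in any. Summed markers of astrocytes and radial glia reached 190 to 339 FPKM in somatodendritic and 23.8 to 540 FPKM in axonal libraries, and those of oligodendrocyte lineage 52.1 to 121 FPKM and 7.27 to 83.5 FPKM. Microglial markers summed to at most 51.6 FPKM and endothelial markers to at most 5.75 FPKM. Glial transcripts were thus present in both compartments, and for a bulk library fewer cells of a type and less RNA per cell cannot be told apart.

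Txn1 was the most abundant of the 10 transcripts in every group and Txnip among the least in all but one. In somatodendritic Control libraries Txn1 stood at 147 ± 15.6 FPKM (SD, n = 4), Prdx2 at 109 ± 22.6, Prdx5 at 81.7 ± 15.8 and Prdx1 at 40.6 ± 5.64 FPKM, and each of these steps was larger than either SD. The next genes, Gpx4 (28.8 FPKM), Txn2 (22), Prdx6 (19.2), Prdx3 (15.7) and Txnrd1 (13.6 FPKM), each lay within the larger SD of its neighbour in this order. Txnip was last, at 8.91 ± 3.70 FPKM. In somatodendritic Tdp-43 knockdown libraries it stood at 36.6 ± 21.0 FPKM (n = 6), between Prdx5 (48.0 ± 13.5) and Prdx1 (32.5 ± 6.62 FPKM), neither of which it differed from by more than its SD. In axonal Control libraries Txn1 (97.6 ± 31.5 FPKM) and Prdx2 (91.3 ± 41.8 FPKM) led again and no step to the next gene was larger than both SDs.

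**Figure D1:**
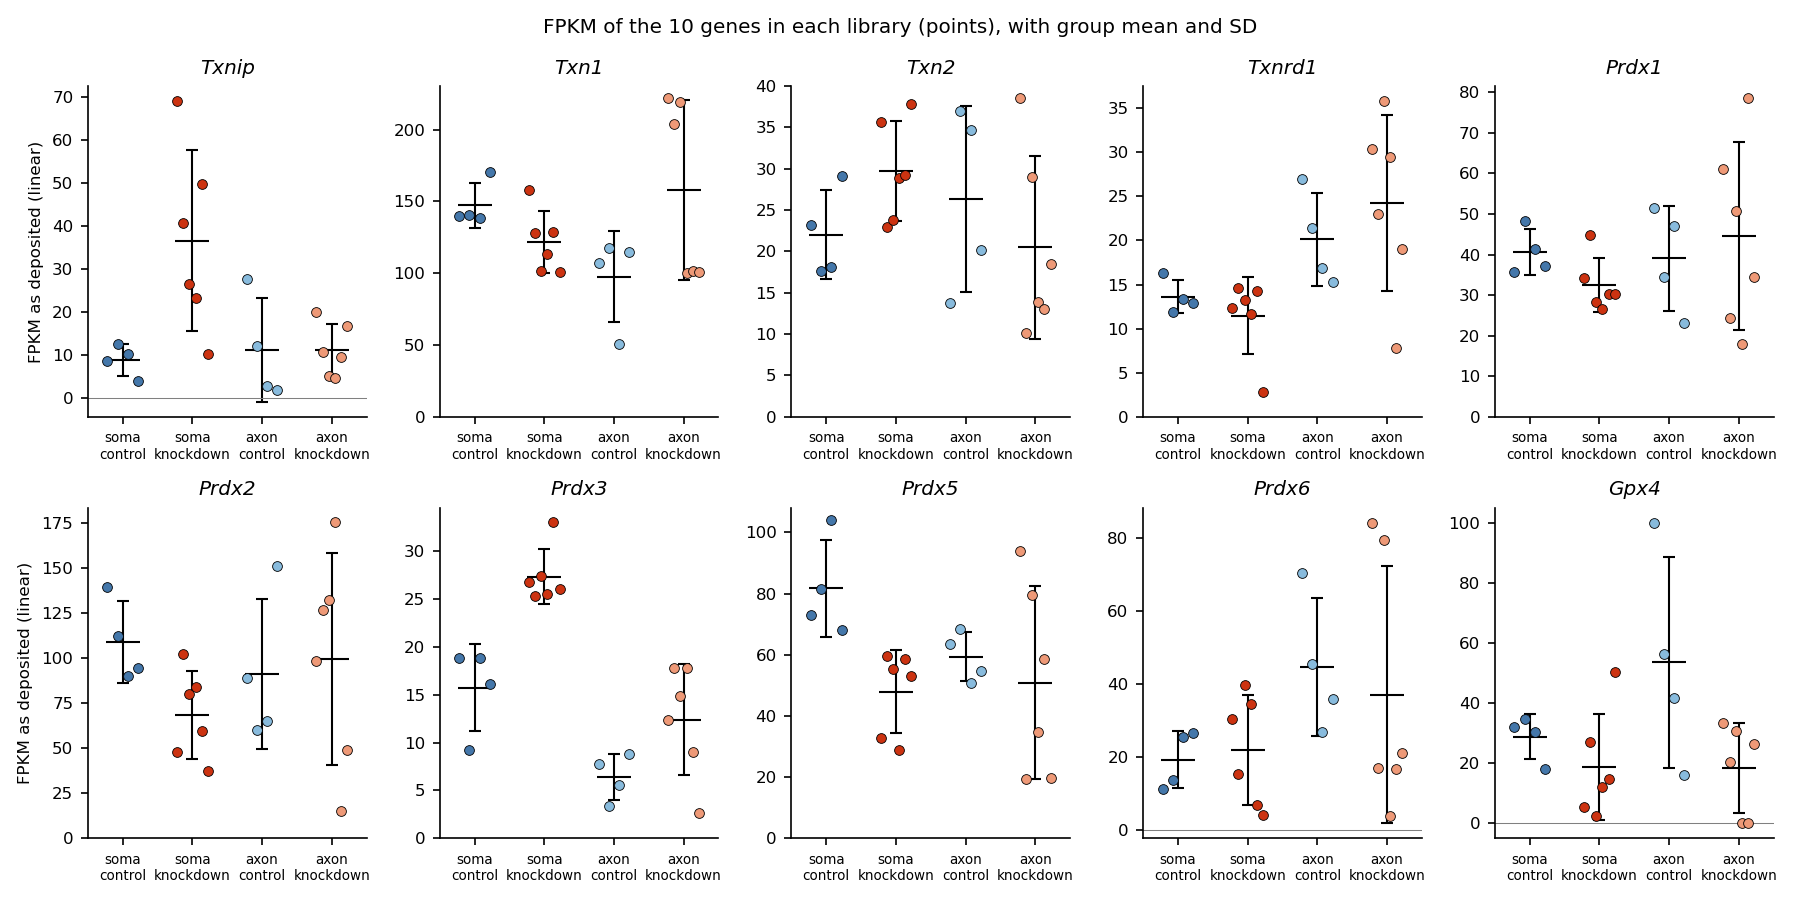
FPKM as deposited (linear axis, starting at or just under 0) of each of the 10 genes in the 20 libraries. Each point is 1 library, the horizontal bar is the group mean and the whiskers are the SD (n = 4 Control, n = 6 knockdown); soma stands for somatodendritic and axon for axonal. Txnip is higher in 5 of 6 somatodendritic knockdown libraries than in any somatodendritic Control library, Prdx3 in 6 of 6, and Prdx5 is lower in 6 of 6.

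To ask what loss of Tdp-43 does to these transcripts in cell bodies and dendrites, the somatodendritic libraries were compared. Txnip and Prdx3 rose, and Txn1, Prdx1, Prdx2 and Prdx5 fell, each at an unadjusted p under 0.05, the threshold of the study. This was tested with limma. In all, 6 of the 10 genes passed the threshold, against 13.8% of the 13762 genes tested (4.59% higher and 9.22% lower in knockdown). That balance turns with the scale, from 632 genes higher and 1269 lower with scaling to 1276 higher and 748 lower as deposited, where 4 of the 10 passed. When p-values were adjusted (Benjamini-Hochberg, over every gene in the test) none of the 10 passed, against 0.974% of all genes, and the lowest adjusted p among them was 0.0829, for Prdx5. Txnip passed with adjustment without knockdown replicate 6 (adjusted p = 0.0305), and Txnip (adjusted p = 0.0266) and Prdx5 (adjusted p = 0.0239) did with array weights. Throughout, a gene is said to rise, fall or pass on the unadjusted limma p, and the p-values printed are the adjusted ones or come from an exact permutation test. Txnip, Txn1, Prdx2 and Prdx5 are on lists that the study drew from these same libraries, so their directions here are not independent evidence. Log2 changes are of FPKM + 1 after scaling each library by the median of ratios, which sets the median gene at -0.13 in this comparison and at 0.04 when FPKM is taken as deposited. The median of the 10 genes was -0.51.

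Txnip, the inhibitor, was at 8.63, 12.7, 10.4 and 3.93 FPKM in somatodendritic Control replicates 1 to 4. In knockdown libraries it had a lowest value of 10.3, a median of 33.5 and a highest value of 68.9 FPKM. All knockdown libraries but replicate 6, which had a relative depth of 0.143, were above every Control library, and the groups overlapped through that library. The mean was 4.11 times that of Control as deposited and 3.45 times after scaling. The log2 change was 1.60 (SE 0.45, 95% interval 0.62 to 2.57, adjusted p = 0.121), above the change of 99.8% of all genes. An exact permutation test over the 210 possible arrangements, on scaled FPKM as for every gene below, gave a two-sided p of 0.0429. The value is uncertain within single libraries. The intervals of Cufflinks also carry the uncertainty in assigning fragments to isoforms, so the fragments they imply are not counts. They correspond to 0.301 to 2.42 implied fragments for Txnip in Control and 0.0798 to 11 in knockdown somatodendritic libraries. The intervals exclude 0 in 4 of the 6 knockdown and none of the 4 Control libraries.

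Txn1, the cytosolic thioredoxin that Txnip binds, was at 140, 140, 139 and 171 FPKM in Control and at 101 (lowest), 121 (median) and 158 (highest) FPKM in knockdown somatodendritic libraries. Deposited values of 5 of 6 knockdown libraries, and scaled values of all 6, were below every Control library. The log2 change was -0.50 (SE 0.14, adjusted p = 0.115) with scaling, where it passed, and -0.28 (adjusted p = 0.428) as deposited, where it did not. The exact permutation p of the scaled FPKM was 0.00952. Of the rest of the thioredoxin branch, the mitochondrial thioredoxin Txn2 changed by 0.22 (SE 0.22, interval -0.26 to 0.70) and the reductase Txnrd1 by -0.55 (SE 0.37, interval -1.35 to 0.24). Neither passed the test, although Txnrd1 had an exact permutation p of 0.0476 on scaled FPKM. Knockdown replicate 6, the shallowest of the group, has the lowest Txnrd1 value (2.81 FPKM), and without it the change was -0.25.

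Because Txnip acts by binding thioredoxin, the transcripts were also set against each other within each library, a measure that no scaling can move. Txnip FPKM was 6.19%, 9.03%, 7.50% and 2.30% of Txn1 FPKM in somatodendritic Control libraries and between 10.3% and 43.7% in the knockdown libraries (mean 28.5% ± 12.2, n = 6, against 6.26% ± 2.88, n = 4). All 6 knockdown libraries were above every Control library. The log2 ratio differed by 2.21, with an exact two-sided permutation p of 0.00476, the smallest that 210 splits can give. This ratio joins the Txnip and Txn1 changes given above and is not independent of them. The lowest knockdown value, 10.3% in replicate 6 against 9.03% in the highest Control library, has a Txnip interval that includes 0 (0.0798 implied fragments). Without knockdown replicate 6 the difference was 2.48. In axonal libraries the ratio was 25.8%, 10.4%, 5.78% and 1.62% in Control and 2.38% to 16.7% in knockdown, the difference of the log2 ratio being -0.10 (exact permutation p = 0.895). No knockdown library was above the highest axonal Control library.

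**Figure D2:**
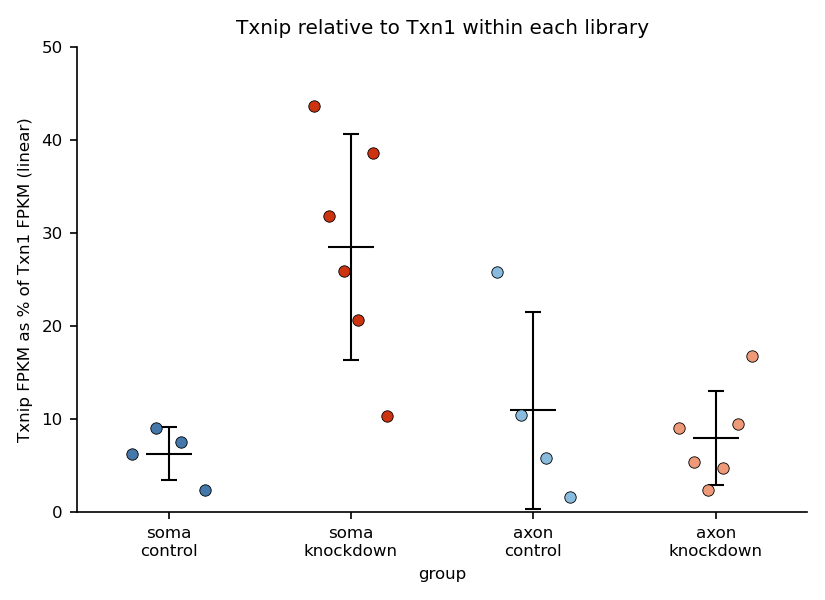
Txnip FPKM as a percentage of Txn1 FPKM in the same library (linear axis from 0), 1 point per library, with group mean and SD (n = 4 Control, n = 6 knockdown). The somatodendritic knockdown libraries lie between 10.3% and 43.7%, all above the somatodendritic Control libraries at 2.30% to 9.03%, while the axonal groups overlap.

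The peroxiredoxins went in different directions in the somatodendritic libraries. Prdx5 was at 73.0, 81.6, 104 and 68.2 FPKM in Control and at 29.0 (lowest), 54.1 (median) and 59.6 (highest) FPKM in knockdown. The groups did not overlap, with or without scaling, and the scaled mean of knockdown was 50.9% of that of Control (log2 change -1.0, SE 0.25, adjusted p = 0.0829, exact permutation p = 0.00476). Prdx2, a cytosolic peroxiredoxin, was at 140, 112, 89.9 and 94.4 FPKM in Control and at 37.3, 69.7 and 102 FPKM (lowest, median and highest) in knockdown. Below every Control library were 5 of 6 knockdown libraries as deposited and 6 of 6 once scaled (log2 change -0.93, SE 0.26, adjusted p = 0.1175, exact permutation p = 0.0143). Prdx1, its close relative, was at 35.6, 48.3, 41.5 and 37.2 FPKM in Control and at 26.6, 30.3 and 44.9 FPKM in knockdown. Its log2 change was -0.53 (SE 0.20, adjusted p = 0.240, exact permutation p = 0.0238), and as deposited -0.33, which does not pass.

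Prdx3, which works in mitochondria with Txn2, was the peroxiredoxin that rose. It was at 18.8, 9.20, 18.8 and 16.1 FPKM in Control and at 25.3 (lowest), 26.4 (median) and 33.0 (highest) FPKM in knockdown somatodendritic libraries. Every knockdown library was above every Control library, as deposited and scaled. The log2 change was 0.60 (SE 0.22, adjusted p = 0.246, exact permutation p = 0.00476). Without Control replicate 2, which has the lowest value, it was 0.39 and no longer passed. Groups that do not overlap after scaling were found for 4 of the 10 genes, Prdx3 above Control and Txn1, Prdx2 and Prdx5 below it, against 5.49% of all genes tested.

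The glutathione-dependent enzymes did not pass in the somatodendritic libraries. Prdx6 was at 11.3 to 26.6 FPKM in Control and 4.03 to 39.7 FPKM in knockdown (log2 change -0.32, SE 0.56, interval -1.53 to 0.89). Gpx4 was at 32.1, 34.8, 30.4 and 18.0 FPKM in Control and at 2.48, 13.4 and 50.3 FPKM (lowest, median and highest) in knockdown, where 4 of 6 libraries were below and 1 above every Control library. Its log2 change was -1.28 (SE 0.62, interval -2.63 to 0.08, exact permutation p = 0.219). Without the 2 libraries under a relative depth of 0.5, knockdown replicates 5 and 6, Gpx4 fell by 1.79 (adjusted p = 0.136), and 7 of the 10 genes passed, against 15.9% of all genes in that fit.

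Markers of the other cells in these cultures moved as well. Of 4 markers of other neurons, 3 fell in somatodendritic knockdown libraries, and 1 of them passed with adjustment, as none of the 10 genes did. The list summed to 111 to 144 FPKM in Control and 75 to 110 FPKM in knockdown. The sums for astrocytes and radial glia were 270 to 339 FPKM and 190 to 334 FPKM, with 1 of 6 markers higher and 1 lower. Of the markers tested, 1 of 6 for oligodendrocyte lineage and 1 of 4 for microglia fell, and the 1 tested for fibroblasts and the 1 for motoneurons did not pass. Their part in the changes above was not tested.

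In axons the picture was wider in its spread and narrower in its calls. Gpx4 and Prdx5 fell, 2 of the 10 genes, against 8.6% of the 13958 genes tested (2.14% higher and 6.46% lower in knockdown). None passed with adjustment, against 0.401% of all genes, and none of the 10 had groups that did not overlap, against 2.47%. The median gene changed by -0.17 with scaling and by 0.23 as deposited, so directions of small changes depend on the scale. The calls over all genes were 299 higher and 902 lower with scaling, and 999 higher and 373 lower as deposited. The median of the 10 genes was -0.54 with scaling. Prdx6 is on the study's own list of transcripts from these axonal libraries. No tested marker of another cell type passed between the axonal groups. Summed microglial markers had a median of 1.37 FPKM in Control and 18.2 FPKM in knockdown, with all 3 tested above 0 in log2 change (median 1.33). The 5 measured motoneuron markers were at 0 in all 6 knockdown axonal libraries. In Control axonal libraries Chat, Isl2 and Mnx1 were at 0 as well, and the list summed to 0 to 8.9 FPKM (median 0.739 FPKM). No motoneuron marker was high enough to be tested between the axonal groups. The part of these cells in the axonal values was not tested.

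Gpx4 was at 100, 56.2, 41.6 and 16.1 FPKM in axonal Control libraries. In knockdown libraries it was listed at 0 in replicates 4 and 5 and at 20.5 to 33.2 FPKM in the other 4. The 4 libraries above 0 lay within the range of Control, so that the groups overlapped. The log2 change was -2.75 (SE 0.98, adjusted p = 0.3985, exact permutation p = 0.0238). The Gpx4 intervals exclude 0 in 8 of all 20 libraries. Replicates 4 and 5 have relative depths of 0.316 and 0.103 and are among the libraries with a high mitochondrial share. Without the libraries under a relative depth of 0.5 Gpx4 changed by -1.13 (adjusted p = 0.643), and with the class of mitochondrial share as a term by -1.86 (adjusted p = 0.941), values that do not pass. Over the 3 Control and 2 knockdown axonal libraries with a low mitochondrial share it fell by 1.65 (SE 0.44, adjusted p = 0.372). The 2 knockdown libraries are replicates 1 (33.2 FPKM) and 3 (30.7 FPKM), the first of which is the library whose Tardbp level goes against its label.

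Prdx5 was at 63.5, 68.3, 50.8 and 54.7 FPKM in axonal Control libraries and at 19.3, 46.6 and 93.8 FPKM (lowest, median and highest) in knockdown. Its deposited values were lower than every Control library in 3 of 6 knockdown libraries and higher than every one in 2. The log2 change was -0.98 (SE 0.41, adjusted p = 0.522, exact permutation p = 0.0333) with scaling. As deposited it was -0.46 and did not pass. Within the libraries of low mitochondrial share it was -0.23, and with that class as a term -0.66, neither of which passed. The low-share group again holds replicates 1 (93.8 FPKM) and 3 (79.4 FPKM) as its only knockdown libraries. The part of the mitochondrial share in the Prdx5 value was not tested.

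Txnip did not pass in axonal libraries. It was at 27.7, 12.3, 2.94 and 1.85 FPKM in Control and at 4.70, 10.2 and 20.0 FPKM (lowest, median and highest) in knockdown, and no knockdown library lay outside the range of Control. The log2 change was -0.02 (SE 0.68, interval -1.47 to 1.43), an interval that ends just below the somatodendritic change of 1.60. The intervals of the Txnip axonal values correspond to 0.034 to 4.56 implied fragments. Txn1 changed by 0.14 (interval -0.61 to 0.89), Txnrd1 by -0.35, Prdx1 by -0.44, Prdx2 by -0.64 and Prdx3 by 0.28, none past the test. With 1 replicate left out Txnrd1 ranged from -0.48 to -0.08 (highest without knockdown replicate 5), Prdx1 from -0.68 to -0.23 (without knockdown replicate 4), Prdx2 from -0.89 to -0.20 (without knockdown replicate 5) and Prdx3 from 0.03 (without Control replicate 2) to 0.58 (without knockdown replicate 6), and none passed. As deposited, Txnrd1 and Prdx1 changed in the other direction, by 0.16 and 0.08, as did Txnip (0.43). Txn2 was at -0.90 (SE 0.44, exact permutation p = 0.0429) and Prdx6 at -1.31 (SE 0.62, exact permutation p = 0.105), and neither passed by limma. Without the library labelled Tdp-43 knockdown axonal replicate 1, Txn2 (-1.05), Prdx5 (-1.15), Prdx6 (-1.61) and Gpx4 (-3.05) passed at an unadjusted p, 4 of the 10 genes, against 9.44% of all genes in that fit.

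**Figure D3:**
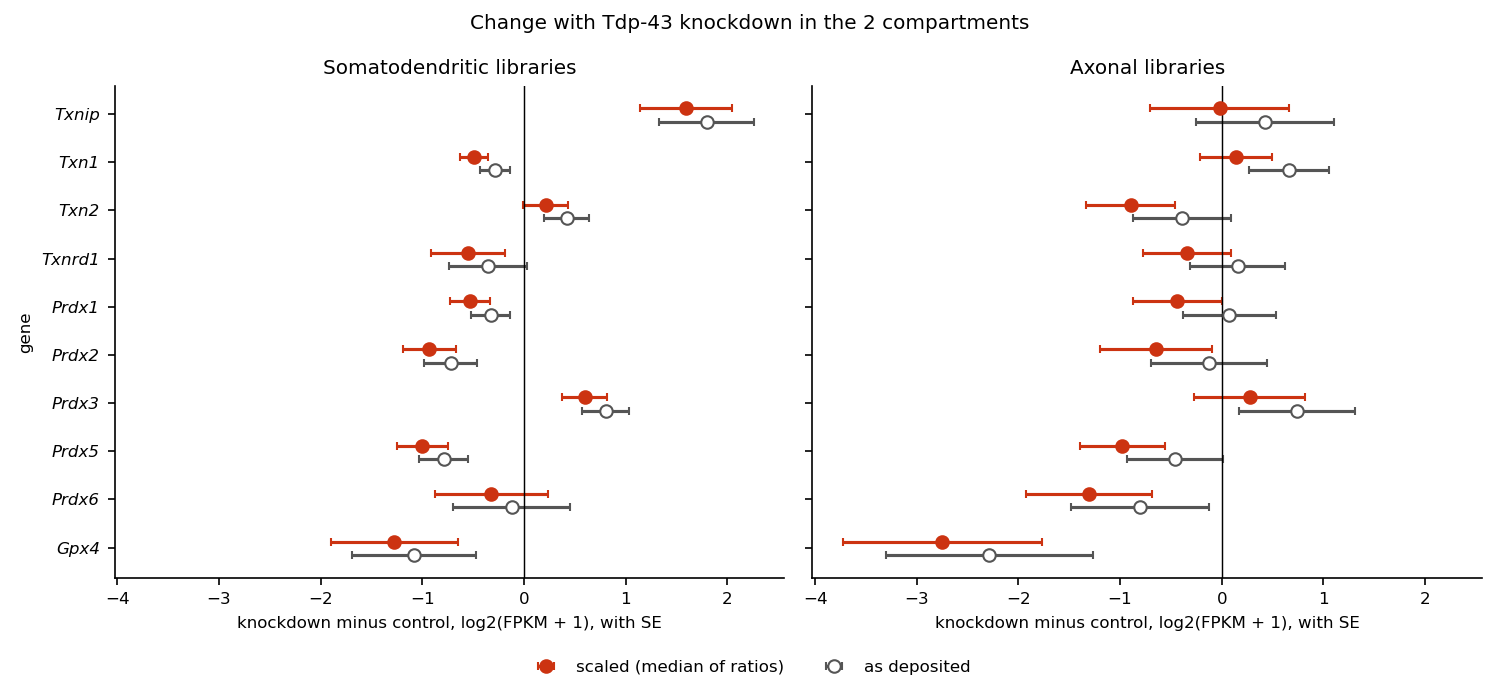
Knockdown minus Control difference of log2(FPKM + 1) for each gene in somatodendritic (left) and axonal (right) libraries, with SE from limma. Filled points are scaled by the median of ratios and open points are as deposited. In the somatodendritic libraries each gene keeps its side of 0 on both scales, while in axonal libraries Txnip, Txnrd1 and Prdx1 change sides.

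The change with knockdown was also compared between compartments, as an interaction term over all 20 libraries. Txn2 was the only one of the 10 genes to pass (difference -1.14, axonal minus somatodendritic, SE 0.47, interval -2.12 to -0.16, adjusted p = 0.846), against 5.61% of the 14062 genes tested unadjusted and 0.0711% adjusted. It did not pass as deposited (-0.81), at a relative depth of at least 0.5 (-0.60), with the replicate block or without Control replicate 2 (-0.88) or 3 (-0.87). As deposited the one gene to pass was Txn1, at 0.95, and the calls over all genes were 707 higher and 173 lower, against 387 and 402 with scaling. The log2 change of Txn2 was -0.90 in axonal and 0.22 in somatodendritic libraries, neither of which passed by itself. Intervals of Txn2 exclude 0 in 8 of all 20 libraries. For Txnip the difference was -1.61 (SE 0.86, interval -3.39 to 0.17, adjusted p = 0.925). Without the axonal libraries of high mitochondrial share Txnip (-2.35, adjusted p = 0.699) and Txn1 (0.99, adjusted p = 0.599) passed the unadjusted threshold and Txn2 (-0.70) did not. The axonal knockdown libraries are then replicates 1 and 3 alone, with the doubt about the label of replicate 1. The other 8 genes had differences between -1.57 (Gpx4) and 0.62 (Txn1). Gpx4 ran from -2.23 to -0.92 and Prdx6 from -1.36 to -0.36 with 1 replicate left out, and neither passed. All 4 microglial markers tested were above 0 in the interaction over all 20 libraries, and 1 passed (median 1.13, against -0.04 for all genes). The part of microglia in these differences was not tested. With 1 replicate left out the Txnip difference ran from -2.06 to -1.0, and it passed the unadjusted threshold without Control replicate 3, Control replicate 4 or knockdown replicate 6, but not over all libraries.

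Between compartments of the same condition, Prdx6 and Txnrd1 were higher in axons in Control cultures. With scaling their differences were above those of 95.6% (Prdx6) and 87.55% (Txnrd1) of all genes. Prdx6 was at 11.3, 13.6, 25.3 and 26.6 FPKM in somatodendritic and at 70.5, 45.4, 26.8 and 35.9 FPKM in axonal Control libraries, the lowest axonal value being just above the highest somatodendritic one. Scaled over all 20 libraries its axonal mean was 3.52 times the somatodendritic mean (log2 difference 1.75, SE 0.36, adjusted p = 0.0177). Txnrd1 was at 16.3, 11.9, 13.4 and 12.9 FPKM in somatodendritic and at 27.0, 21.4, 16.8 and 15.3 FPKM in axonal Control libraries (log2 difference 1.07, SE 0.28, adjusted p = 0.0465). Gpx4 was also higher in axons (log2 difference 1.22, SE 0.49, adjusted p = 0.168). These 3 genes passed of 10, against 22.8% of 13760 genes tested (12.1% higher and 10.7% lower in axons). As deposited 31.3% were called, 735 higher and 3575 lower. The 2 that passed with adjustment compare with 6.74% of all genes, or 4.19% counting those higher in axons. Without Control replicate 1 or 2, or with the replicate block, neither gene passed with adjustment, and without replicate 3 or 4, with quantile normalization, with no filter on low values or at a relative depth of at least 0.5 Prdx6 did and Txnrd1 did not. With the 3 axonal Control libraries of low mitochondrial share Gpx4 also passed with adjustment (1.72, adjusted p = 0.013), and Txn2 (0.86) and Prdx1 (0.72) passed without it. As deposited, where the median gene is at -0.48, Txnrd1 (0.51) and Gpx4 (0.64) no longer passed, Prdx6 did (1.17, adjusted p = 0.0541), and so did Txn1 (-0.66, adjusted p = 0.125) and Prdx3 (-1.19, adjusted p = 0.0513), both lower in axons. On that scale none of the 10 passed with adjustment. With scaling the other genes did not pass, at 0.74 for Txn2, 0.47 for Prdx1, 0.30 for Txnip, 0.25 for Prdx2, 0.14 for Prdx5, -0.07 for Txn1 and -0.67 for Prdx3, and the median of the 10 was 0.38 against -0.02 for all genes.

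In Tdp-43 knockdown cultures Txnrd1 was again higher in axons, at 7.79, 26.2 and 35.9 FPKM (lowest, median and highest) against 2.81, 12.8 and 14.6 FPKM in somatodendritic libraries (log2 difference 1.24, SE 0.41, adjusted p = 0.136). Txn1 was higher as well, by 0.54 (adjusted p = 0.289) with scaling, but as deposited the difference was 0.29 and did not pass. Txnip (-1.31, SE 0.47, adjusted p = 0.165) and Prdx3 (-1.01, SE 0.39, adjusted p = 0.198) were lower in axons. These 4 of 10 genes compare with 16.7% of 14021 genes tested (8.02% higher and 8.64% lower in axons, which as deposited become 771 genes higher and 1767 lower), and none passed with adjustment, against 1.42%. With array weights Txnrd1 did (adjusted p = 0.0436). Both Txnip and Prdx3 were also those that rose in the somatodendritic libraries with knockdown, and the 2 comparisons share these libraries. The other genes did not pass, among them Prdx1 (0.54), Prdx2 (0.52), Prdx5 (0.13), Gpx4 (-0.36) and Txn2 (-0.39), and the median of the 10 was 0.32 against -0.05 for all genes. With 1 replicate left out Prdx2 ran from 0.32 to 0.93 and passed only without replicate 5. Prdx6 ran from 0.37 to 1.37 and passed only without replicate 4. Over all libraries Prdx6 was at 3.67, 19.0 and 84.3 FPKM in axonal knockdown libraries (log2 difference 0.72, SE 0.64, interval -0.64 to 2.09). In the 2 of them with a low mitochondrial share it was 84.3 and 79.4 FPKM, and with these alone as the axonal group the difference was 2.2 (adjusted p = 0.213) and passed. Prdx1 (0.75) and Prdx5 (0.86) also passed there. The higher of the 2 Prdx6 values is that of replicate 1, whose Tardbp level goes against its label.

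Summed markers of fibroblasts and meninges were higher in axonal libraries. The list of 5 summed to 11.9 to 47.9 FPKM in axonal against 1.43 to 11.9 FPKM in somatodendritic Control libraries, and to 11.4 to 81.1 FPKM against 0 to 13.9 FPKM in knockdown libraries, with Lum at 0 in all axonal libraries. Most of the sum was Col1a1, with means of 26.4 FPKM in axonal and 2.66 FPKM in somatodendritic Control libraries, while Dcn had means of 0.607 and 0.826 FPKM. In Control 1 of 2 tested markers passed, and in knockdown 3 of 3, all higher in axons. Markers of other neurons summed to 26.2 to 48.8 FPKM in axonal against 111 to 144 FPKM in somatodendritic Control libraries, with 4 of 4 lower in axons. In knockdown these sums overlapped, at 0 to 144 FPKM against 75 to 110 FPKM, and 1 of 4 passed, lower in axons. Glial markers were also lower in axons in Control, with 3 of 6 for oligodendrocyte lineage (median -1.30), 2 of 4 tested for microglia (median -1.37) and 2 of 6 for astrocytes and radial glia (median -0.62) passing. In knockdown 3 of 6 oligodendrocyte markers (median -1.34) and none of the other glial markers passed. The 1 motoneuron marker tested was lower in axons, and passed in knockdown (-1.26) but not in Control (-0.62). The part of these cells in the compartment differences was not tested.

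**Figure D4:**
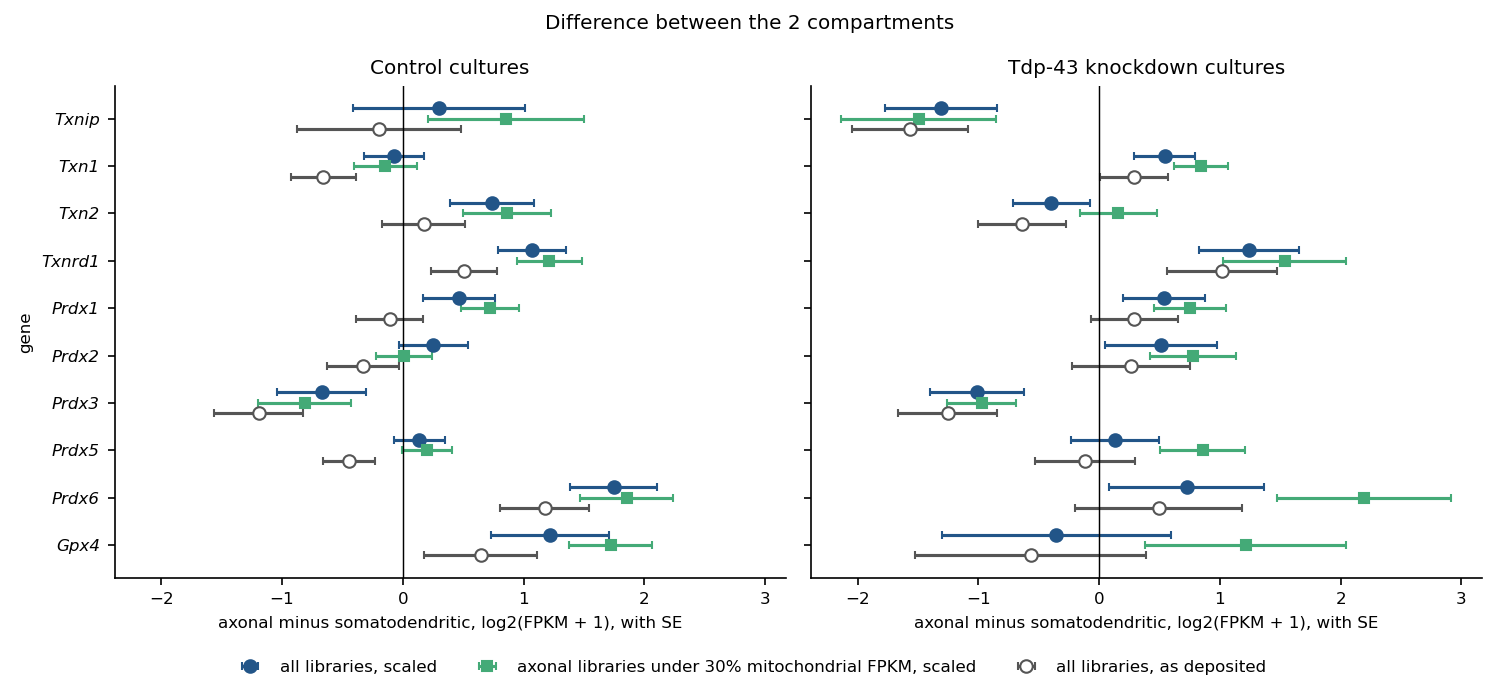
Axonal minus somatodendritic difference of log2(FPKM + 1) for each gene in Control (left) and Tdp-43 knockdown (right) cultures, with SE from limma, for all libraries with scaling (circles), with only the axonal libraries under 30% mitochondrial FPKM (squares), and as deposited (open circles). Prdx6 and Txnrd1 lie to the right of 0 on every scale in both conditions, and Txnip lies at -1.31 in knockdown and at 0.30 in Control cultures with scaling.

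The other genes of the redox system were counted from fixed lists. Among 17 further genes of the thioredoxin fold and peroxiredoxin system, 3 fell and none rose in somatodendritic knockdown libraries, namely Glrx, a glutaredoxin (-0.76, SE 0.31), the mitochondrial reductase Txnrd2 (-1.76, SE 0.77) and the stress-response gene Sesn3 (-0.66, SE 0.30). The median of the list was -0.24. In axonal libraries 16 were tested. Prdx4, the peroxiredoxin of the endoplasmic reticulum, fell by 3.01 (SE 0.81, adjusted p = 0.199) and Txndc5 by 1.22 (SE 0.57), while Txndc12 rose by 1.23 (SE 0.50). The list's median was -0.28. These counts stand beside 13.8% of all genes called in somatodendritic and 8.6% in axonal libraries, and those of the next lists beside the same shares.

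Of the glutathione system, Gstm1 (-0.69, SE 0.23) and Mgst1 (-1.92, SE 0.76), which conjugate glutathione to other molecules, fell among 11 genes tested in somatodendritic libraries, with a list median of -0.30. Among 10 tested in axons Gss, which makes glutathione, rose by 2.19 (adjusted p = 0.450), with a list median of -0.48. Sod1, the cytosolic superoxide dismutase, which the study also picked from these libraries, fell by 2.04 (SE 0.80, adjusted p = 0.281) in somatodendritic and by 1.31 (SE 0.45, adjusted p = 0.372) in axonal libraries. It was 1 of 4 genes of superoxide and hydrogen peroxide in each, with list medians of -0.37 and -0.62. None of these genes passed with adjustment.

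Of 5 alpha-arrestin relatives of Txnip, 3 had enough expression to be tested, and 2 rose in somatodendritic libraries, where 4.59% of all genes did with scaling (632 genes, against 1276 as deposited). There Arrdc3 rose by 1.36 (SE 0.32, adjusted p = 0.0682) and Arrdc4 by 0.84 (SE 0.36), while Arrdc1 was at 0.56 and did not pass. The list's median was 0.84 against -0.13 for all genes. In axonal libraries Arrdc4 rose by 2.21 (SE 0.69, adjusted p = 0.299), where 2.14% of all genes rose and Txnip was at -0.02, and Arrdc3 (0.50) and Arrdc1 (-0.11) did not pass, with a median of 0.50. The factors known to drive Txnip in response to glucose and the glucose transporters, Mlx, Mlxip, Slc2a1 and Slc2a3, did not pass in either compartment, with list medians of -0.10 and -0.93. Nor did the genes of the Nrf2 pathway, 5 tested in somatodendritic and 6 in axonal libraries, with medians of -0.37 and -0.31.

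The genes most like Txnip across the 20 libraries, by Pearson r of scaled log2(FPKM + 1) among the 8838 genes that averaged 5 FPKM or more, were Psme3 (0.687), Fam193a (0.682), Zbtb38 (0.657), Arf5 (0.652) and Rab4a (0.648). The libraries share their group structure and differ in depth, so these are a description. Rab4a, for example, was at 30.1 ± 8.01 FPKM (n = 4) in Control and 47.1 ± 11.9 FPKM (n = 6) in knockdown somatodendritic libraries. Zbtb38 was at 6.01 ± 1.19 FPKM and 16.2 ± 4.68 FPKM in the same groups.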

How the data were processed

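Whole-transcriptome libraries had been amplified by PCR from small RNA amounts. The authors deposited FPKM with a 95% interval for 39174 genes, 1 library at a time, made with Cufflinks 2.2.1 on GRCm38 (both named, with FastQC 0.10.1, in the submitters' processing notes). FPKM carries no read totals. The interval was read as FPKM ± 2 SD of an implied number of fragments, and relative depth as the median of fragments per FPKM over 680 genes with over 3 in all 20 libraries. Such numbers cover counting and assignment error only, since PCR copies are not independent molecules.

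Scaling used the median of ratios, within a compartment for knockdown comparisons and over all 20 otherwise. The test, limma 3.58.1 under R 4.3.3 with eBayes, a trend and no covariate, was run on log2(FPKM + 1) of all genes averaging 1 FPKM or more, and p-values were adjusted over these (Benjamini-Hochberg). All tests are two-sided. Tables were made with Python 3.11.15, numpy 2.4.6 and pandas 2.3.3, and figures with matplotlib 3.10.9. The fit was tested on simulated data. The members and lists were chosen with earlier results of these data known. All 10 genes are named in every comparison, and genes of the other lists where they pass p under 0.05 with knockdown (at most 4 per list and compartment). Without such a gene, the list is counted. Genes like Txnip are the 5 with the highest r. Alternatives were other scalings, pseudocounts, filters and weights, a depth limit, a replicate block, 1 fit for all libraries and leaving out each replicate; those on mitochondrial share were chosen after seeing the data.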

Additional observations from a re-analysis of the deposited data

Results flagged for a closer look

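In 40 sets of values (10 genes in 4 groups), 4 libraries stood far from the rest of their group, where chance gives about 1 in 20 sets. Txn1 was at 50.8 FPKM in Control axonal replicate 3, below the other 3 libraries, and at 171 FPKM in Control somatodendritic replicate 4, above the other 3. Txnrd1 was at 2.81 FPKM in Tdp-43 knockdown somatodendritic replicate 6, the shallowest of its group, and Prdx3 at 33.0 FPKM in replicate 5 of that group. The response of Txn2 to knockdown differed between compartments by -1.14 on the log2 scale (limma interaction, past the unadjusted threshold, adjusted p = 0.846), 1 of 10 genes tested for such a difference, beside 5.61% of all genes. As deposited it was -0.81, at a relative depth of at least 0.5 it was -0.60, and neither passed, nor did the value with the replicate block or without Control replicate 2 or 3.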

How the results depend on the processing

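How many of the 10 genes passed (unadjusted p under 0.05) was recomputed under each alternative. The share of all genes called in the same fit is given in brackets after each count. For knockdown in somatodendritic libraries it was 6 (13.8%), 4 as deposited (14.7%), and 7 with array weights (17.9%), with the depth limit (15.9%) and with the block (15.4%). With all 20 libraries in 1 fit, which pools the wider axonal spread, Txnip and Prdx5 passed, a count of 2 (7.51%). In axonal libraries it was 2 (8.6%), against 1 as deposited (9.83%), 4 with a pseudocount of 5 (9.09%) and 0 without libraries under a relative depth of 0.5 (7.73%). It was 3 with no filter on low values (7.02%) and in 1 fit (14.2%). Under the settings chosen after seeing the data it was 1 with axonal libraries under 30% mitochondrial FPKM (7.16%) and 0 with that class as a term (5.68%). The restriction to axonal libraries under 30% mitochondrial FPKM gave 5 (27.3%) in place of 3 (22.8%) for compartments in Control. It gave 7 (13.2%) in place of 4 (16.7%) in knockdown, and 2 (6.45%) in place of 1 (5.61%) for the interaction. The interaction count was also 2 with a pseudocount of 5 (6.23%), 3 with array weights (6.78%) and 0 at a relative depth of at least 0.5 (6.52%). The cause was not tested. Leaving out each replicate in turn gave 4 to 7 for somatodendritic knockdown (10.8% to 15.6%), with 4, at 10.8%, without Control replicate 2. It gave 1 to 4 for axonal knockdown (6.27% to 9.76%) and 2 to 5 for compartments in Control (17% to 24.1%). The count was 2 to 5 for compartments in knockdown (13.1% to 17.8%) and 0 to 2 for the interaction (4.17% to 6.31%). The calls of Txnip, Txn1, Prdx2 and Prdx5 in somatodendritic libraries and of Gpx4 in axons were kept without any 1 replicate. Prdx5 in axons lost its call without Control replicate 1 or 2 or knockdown replicate 2 or 6, and Gpx4 between Control compartments without replicate 1, 2 or 3. Prdx1 and Prdx3 in somatodendritic libraries lost theirs without Control replicate 2, Txn2 in the interaction without Control replicate 2 or 3, and, between knockdown compartments, Txn1 without replicate 1, 2, 3 or 6 and Prdx3 without replicate 6.

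The replicate number as a block left the interaction with 0 of 10 genes, against 5.21% of all genes in that fit (Txn2 adjusted p = 0.960). Between libraries that share a number, the correlation of their deviations was at most 0.0714. At the depth of these libraries a low correlation cannot show whether they came from the same dish. With a block Gpx4 passed in somatodendritic libraries (-1.81), as did Prdx1 in axons (-0.70), while Prdx5 in axons did not (-0.89).

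Directions turned only for genes that had not passed. In somatodendritic knockdown Prdx6 was at 0.058 with array weights, 0.43 at a depth of at least 0.5 and 0.41 with the block (-0.57 to 0.0299 without 1 replicate). In axonal knockdown Txnip was at 0.43 as deposited, 0.13 with quantile normalization, 0.0373 with a pseudocount of 0.1, 0.20 by depth and 0.22 with the mitochondrial class (-0.55 to 0.61 without 1 replicate). There Txnrd1 (0.16) and Prdx1 (0.0752) turned as deposited, Prdx2 (0.0207) with the block, Prdx3 (-0.16) by depth, Prdx6 (0.14) with the low mitochondrial share, and Txn1 ranged from -0.11 to 0.24. Between Control compartments Txnip was at -0.20 as deposited (-0.31 to 0.73), as were Prdx1 (-0.11), Prdx2 (-0.33) and Prdx5 (-0.446) below 0. There Prdx5 was at -0.042 with quantile normalization, Prdx2 ranged from -0.0756 to 0.469 and Txn1 from -0.18 to 0.15. Between knockdown compartments Gpx4 was at 0.0093 with a pseudocount of 5, 0.90 with array weights, 1.77 by depth and 1.22 with the low mitochondrial share (-1.01 to 0.32), Prdx5 at -0.116 as deposited (-0.158 to 0.371), and Txn2 at 0.104 by depth and 0.16 with the low mitochondrial share. In the interaction Prdx5, at -0.0036, was at 0.33 as deposited, 0.0661 with quantile normalization, 0.18 with array weights, 0.333 by depth and 0.657 with the low mitochondrial share (-0.297 to 0.246). Prdx1 was at -0.0082 with array weights (-0.177 to 0.281), Gpx4 at 0.589 by depth, Prdx6 at 0.344 with the low mitochondrial share, and Txnrd1 ranged from -0.0995 to 0.495. A mean of at least 10 FPKM left Prdx3 out of the axonal test. The log2 ratio of Txnip to Txn1 differed by 2.08 in somatodendritic libraries with FPKM + 1. All genes past p under 0.05 numbered 1034 with all 20 libraries in 1 fit against 1901 in somatodendritic, and 1988 against 1201 in axonal libraries.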
